A study of Mus musculus with 24 samples.

Results

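The 33 genes described here encode parts of the motile cilium, apart from Foxj1, which encodes a transcription factor. They were taken by name from a list of cilium genes, under the older symbols of the count tables. These symbols are Dnahc for the current Dnah, Dnaic for Dnai, Wdr52 for Cfap44, Gm1060 for Drc1 and 1700009P17Rik for Cfap126. All 33 had a row among the 25793 genes of the tables. RNA-seq had been carried out on cerebellum (CB) and hippocampus (HC) of male mice at postnatal day 14 (P14) and P35, with 3 libraries for each of the 8 groups and 24 libraries in all. The mutants were homozygotes for the reciprocal translocation 16Gso (16GsoT/T), which joins chromosomes 5 and 8 and breaks between Auts2 and Galnt17, and the controls were wild type (WT) mice of the same age. The labels give both genotypes a C57BL/6 background, whereas the study's methods state a B6C3 (C57BL/6 by C3H/He) background and the labels of WT mice also carry B6C3. The mutation is a single translocation carried in every cell, no cell type was sorted, and per the methods the homozygotes were bred from homozygous parents, so family and genotype cannot be told apart. GEO's design text counts 3 animals for each genotype and age, and whether CB and HC came from the same animals is not given in the sources used here.

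Motile cilia beat, and in brain they are carried mainly by ependymal cells, which line the ventricles and move cerebrospinal fluid. Their axoneme is a ring of microtubule doublets around a central pair. Axonemal dyneins on the doublets produce the force, radial spokes and the nexin-dynein regulatory complex control it, and tektins lie inside the doublets. Foxj1 is a transcription factor needed for the program of motile ciliogenesis, and RFX factors, which bind X-box sequences, act at many cilium promoters.

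Reads counted on genes ran from 22893603 to 40564789 in P14 CB, from 10572358 to 13245150 in P14 HC, from 5140843 to 7974640 in P35 CB and from 2563968 to 4127478 in P35 HC. The share of reads placed on no gene was 20.6 to 22.5% in the 6 P14 CB libraries and 48.9 to 51.9% in the other 18, so comparisons of P14 CB with another tissue or age also compare these sets of libraries. In P35 CB, 37.6 to 37.7% of reads were on genes in WT and 42.3 to 42.4% in 16GsoT/T. Wbscr17, the tables' symbol for Galnt17, had a lower level in CPM (reads of a gene scaled to a fixed library total) in every 16GsoT/T library than in any WT library of the same tissue and age, with means of 19.8 against 41.0 CPM in P14 CB and 123 against 187 CPM in P35 HC. The 8 cerebellar and 8 hippocampal marker genes each passed the test in the direction of their tissue at both ages. WT replicate 1 of P14 HC stood apart with 42.0 CPM of Adora2a, a striatum marker, against 3.34 to 6.24 CPM in the other 5 P14 HC libraries.

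Promoter windows are shown for the 6 genes of the list that passed the test between genotypes and had a window, 3 called higher (Ccdc153, Gm1060 and Dnahc6) and 3 called lower (Wdr52, Ccdc39 and Dnahc11) in 16GsoT/T. Rsph1 and Dnahc3 were also called. RefSeq windows of GRCm38.p6, from 250 bases before to 50 bases after the start, were held for 27 of the 33 genes, in 32 windows. The RFX half-site GTTGCC, searched on both strands, was in 13 of the 32 windows (40.6%) and in 12.5% of all 32851 windows of the same length. Counted by gene it was in 12 of 27 (44.4%) against 14.1% of all genes with a window. The full palindromic X-box was in 0 of the 32 windows and 0.128% of all windows, and the forkhead motif GTAAACA was in 1 of the 32 (3.12%), that of Ak7, and in 3.65% of all windows. The windows are printed 5′ to 3′ on the strand of the gene, with each GTTGCC, or its reverse complement GGCAAC, in capitals. Ccdc153 and Gm1060 held 1 match each, at base -152 and base -11 from the start, Wdr52 held 2, at bases -129 and -19, and Dnahc6, Ccdc39 and Dnahc11 held none.
Ccdc153 (chr9:44240427-44240726, + strand): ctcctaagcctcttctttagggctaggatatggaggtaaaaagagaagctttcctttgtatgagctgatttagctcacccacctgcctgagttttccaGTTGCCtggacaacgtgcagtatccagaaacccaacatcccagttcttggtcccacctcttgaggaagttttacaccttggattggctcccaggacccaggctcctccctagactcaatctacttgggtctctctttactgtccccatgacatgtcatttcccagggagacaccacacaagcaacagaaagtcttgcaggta
Gm1060 (chr5:30281143-30281442, + strand): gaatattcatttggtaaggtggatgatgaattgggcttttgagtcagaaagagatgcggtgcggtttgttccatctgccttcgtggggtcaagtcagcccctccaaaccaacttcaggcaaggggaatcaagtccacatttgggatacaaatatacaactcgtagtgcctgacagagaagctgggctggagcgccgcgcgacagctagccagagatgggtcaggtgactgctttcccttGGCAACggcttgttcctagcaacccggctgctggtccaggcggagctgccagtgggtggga
Dnahc6 (chr6:73221582-73221881, - strand): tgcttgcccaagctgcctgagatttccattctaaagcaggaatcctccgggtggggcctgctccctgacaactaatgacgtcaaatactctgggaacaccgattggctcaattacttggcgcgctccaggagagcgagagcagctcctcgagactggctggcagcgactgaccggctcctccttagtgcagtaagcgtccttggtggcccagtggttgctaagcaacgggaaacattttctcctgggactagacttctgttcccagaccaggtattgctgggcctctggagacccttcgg
Wdr52 (chr16:44394549-44394848, + strand): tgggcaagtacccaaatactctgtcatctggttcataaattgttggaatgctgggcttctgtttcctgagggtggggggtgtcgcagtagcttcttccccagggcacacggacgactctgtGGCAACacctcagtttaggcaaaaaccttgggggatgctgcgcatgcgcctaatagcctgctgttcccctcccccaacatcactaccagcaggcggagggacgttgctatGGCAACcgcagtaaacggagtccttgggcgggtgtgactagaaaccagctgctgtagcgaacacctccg
Ccdc39 (chr3:33844261-33844560, - strand): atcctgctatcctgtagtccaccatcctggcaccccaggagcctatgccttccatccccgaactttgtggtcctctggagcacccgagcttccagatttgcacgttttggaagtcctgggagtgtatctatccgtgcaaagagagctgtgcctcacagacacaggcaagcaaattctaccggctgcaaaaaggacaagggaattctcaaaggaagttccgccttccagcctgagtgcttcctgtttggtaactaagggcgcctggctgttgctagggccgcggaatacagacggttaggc
Dnahc11 (chr12:118198994-118199293, - strand): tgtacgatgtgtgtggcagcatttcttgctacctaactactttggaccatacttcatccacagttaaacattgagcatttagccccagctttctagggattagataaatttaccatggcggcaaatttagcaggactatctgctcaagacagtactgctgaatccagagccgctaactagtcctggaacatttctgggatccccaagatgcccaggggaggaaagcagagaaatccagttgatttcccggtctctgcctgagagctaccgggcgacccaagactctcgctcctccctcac
These matches describe letters in the windows, and no binding was measured.

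Levels of the 33 genes were low. In CPM scaled by TMM (trimmed mean of M values, a correction for library composition) over all 24 libraries, the median gene of the list had a mean of 1.60 CPM in WT P14 CB, 2.86 CPM in WT P14 HC, 1.78 CPM in WT P35 CB and 3.29 CPM in WT P35 HC. In the shallowest library 1 read is worth 0.398 CPM. Per kilobase of exon, which allows genes to be compared, Rsph9, a radial spoke head protein, had the highest level of the list in WT HC, with 9.29 ± 1.91 CPM per kb at P14 and 7.45 ± 0.872 CPM per kb at P35 (SD, n = 3). In WT P35 CB the highest level per kb was that of Ccdc39, a coiled-coil protein that sets the spacing along the doublets, with 6.39 ± 0.667 CPM per kb. Ccdc39 shares 1234 of its 7045 exon bases with Ttc14, a gene on the opposite strand. Whether reads of Ttc14 entered the count of Ccdc39 cannot be told, so this rank is uncertain. Dnahc12, an inner arm dynein heavy chain, was the lowest of the list in each of the 8 groups, with 0 to 13 reads per library, and it entered no test. The deposited counts of Spag6 are uncertain, since current RefSeq and NCBIM37, the build the counts were made on, place genes of this name on different chromosomes.

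The first question was whether the 33 genes differed between WT tissues. They were lower in CB than in HC for most of the genes that passed the test: at P14, 5 of 32 genes tested were higher in CB and 16 were lower, and at P35, 3 of 21 were higher and 12 were lower (edgeR's quasi-likelihood test, Benjamini-Hochberg adjusted p at most 0.05). Over all genes 77.2% passed at P14 (38.8% higher and 38.4% lower in CB) and 56% at P35 (27.5% higher and 28.5% lower), so the lower share of the list, 50% at P14 and 57.1% at P35, was above that of all genes, and the higher share, 15.6% and 14.3%, was below it. The median log2 fold change of CB over HC was -0.89 at P14 and -1.07 at P35, against 0.01 over all genes tested at each age. Of the genes called, 10 were lower in CB at both ages and 3 were higher at both ages, and none had opposite directions.

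**Figure D1:**
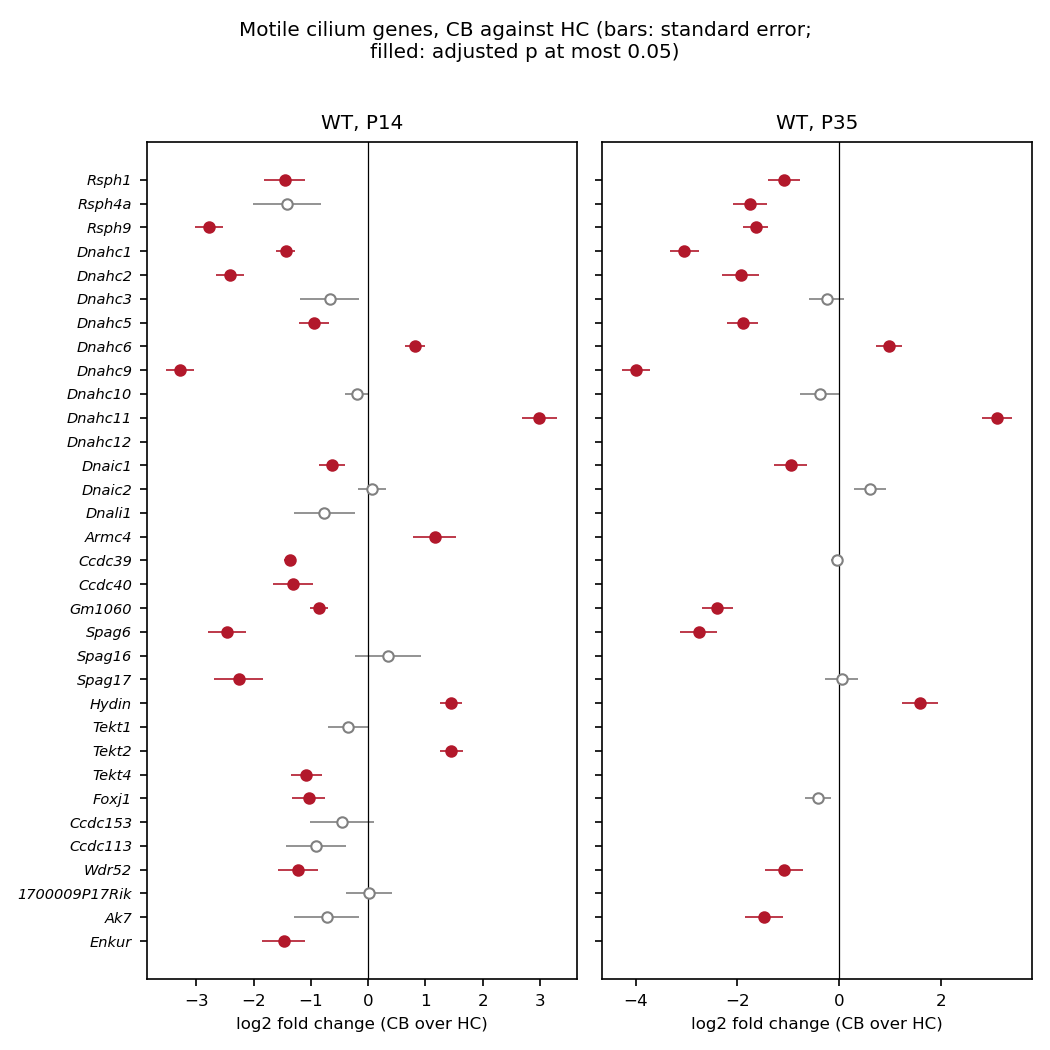
Log2 fold change of CB over HC in WT mice at P14 (left) and P35 (right) for each motile cilium gene tested, with bars for the standard error and filled points for an adjusted p of at most 0.05. Filled points to the left of 0 outnumber those to the right, 16 against 5 at P14 and 12 against 3 at P35.

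Among the genes lower in CB were parts of several cilium structures. Dnahc9, an outer arm dynein heavy chain, had 2.47, 1.62 and 0.999 CPM in the 3 WT P14 CB libraries and 15.4, 19.4 and 15.7 CPM in WT P14 HC, a log2 fold change of -3.28 ± 0.245 (SE, adjusted p = 6.84e-07, edgeR). At P35 its levels were 0.951, 1.85 and 2.25 CPM in CB and 19.6, 26.1 and 32.1 CPM in HC (log2 fold change -3.99 ± 0.283, adjusted p = 7.31e-08, edgeR). The tissues did not overlap at either age, and HC was higher in every library. Rsph9 was lower in CB by log2 fold changes of -2.78 ± 0.242 at P14 and -1.64 ± 0.247 at P35, and Rsph1, another radial spoke head protein, by -1.46 ± 0.359 and -1.08 ± 0.32. At P35 the call of Rsph1 was lost without WT HC replicate 2 (adjusted p = 0.0615, edgeR) or WT CB replicate 1 (0.0517), and with DESeq2 (0.0568). Foxj1 was lower in CB at P14 (log2 fold change -1.04 ± 0.284, adjusted p = 0.00671, edgeR) and had a log2 fold change of -0.41 ± 0.249 at P35, which did not pass (adjusted p = 0.182, edgeR).

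Dnahc11, Hydin and Dnahc6 went the other way at both ages. Dnahc11, an outer arm dynein heavy chain, had 12.5, 10.8 and 11.2 CPM in WT P14 CB and 0.568, 2.58 and 1.08 CPM in WT P14 HC, a log2 fold change of 2.99 ± 0.311 (adjusted p = 8.36e-06, edgeR). At P35 it had 21.7, 25.6 and 18.5 CPM in CB and 1.31, 1.86 and 4.22 CPM in HC (log2 fold change 3.12 ± 0.295, adjusted p = 1.23e-06, edgeR). CB was higher in every library at both ages. Hydin, a central pair protein, had log2 fold changes of 1.44 ± 0.191 and 1.60 ± 0.348, and Dnahc6, an inner arm dynein heavy chain, had 0.82 ± 0.179 and 0.98 ± 0.25. Tekt2 and Armc4 were higher in CB at P14 (log2 fold changes 1.45 ± 0.201 and 1.16 ± 0.375) and too low to be tested at P35. The call of Armc4 was lost without WT HC replicate 3 (adjusted p = 0.066, edgeR) or WT CB replicate 1 (0.0557), and with DESeq2 (0.051). CB and HC libraries carried different lane labels, so an effect of lane cannot be told apart from that of tissue. In bulk tissue fewer ciliated cells and less RNA per cell cannot be told apart.

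In P14 HC, 2 of the 31 genes tested rose in 16GsoT/T and none fell (6.45% of the list against 0.814% of all genes tested, and 0.361% of all genes in the higher direction). Of the 31, 26 had a log2 fold change above 0 and 5 below, and the median was 0.58, against 0.00 over all 15227 genes. In 15 genes every 16GsoT/T library was above every WT library (48.4%, against 12.2% of all genes), and in 2 every 16GsoT/T library was below every WT library (6.45%, against 11.6%). The 2 genes that rose were Ccdc153 and Rsph1. Spag16, a central pair protein, and Dnahc12 were too low to be tested.

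**Figure D2:**
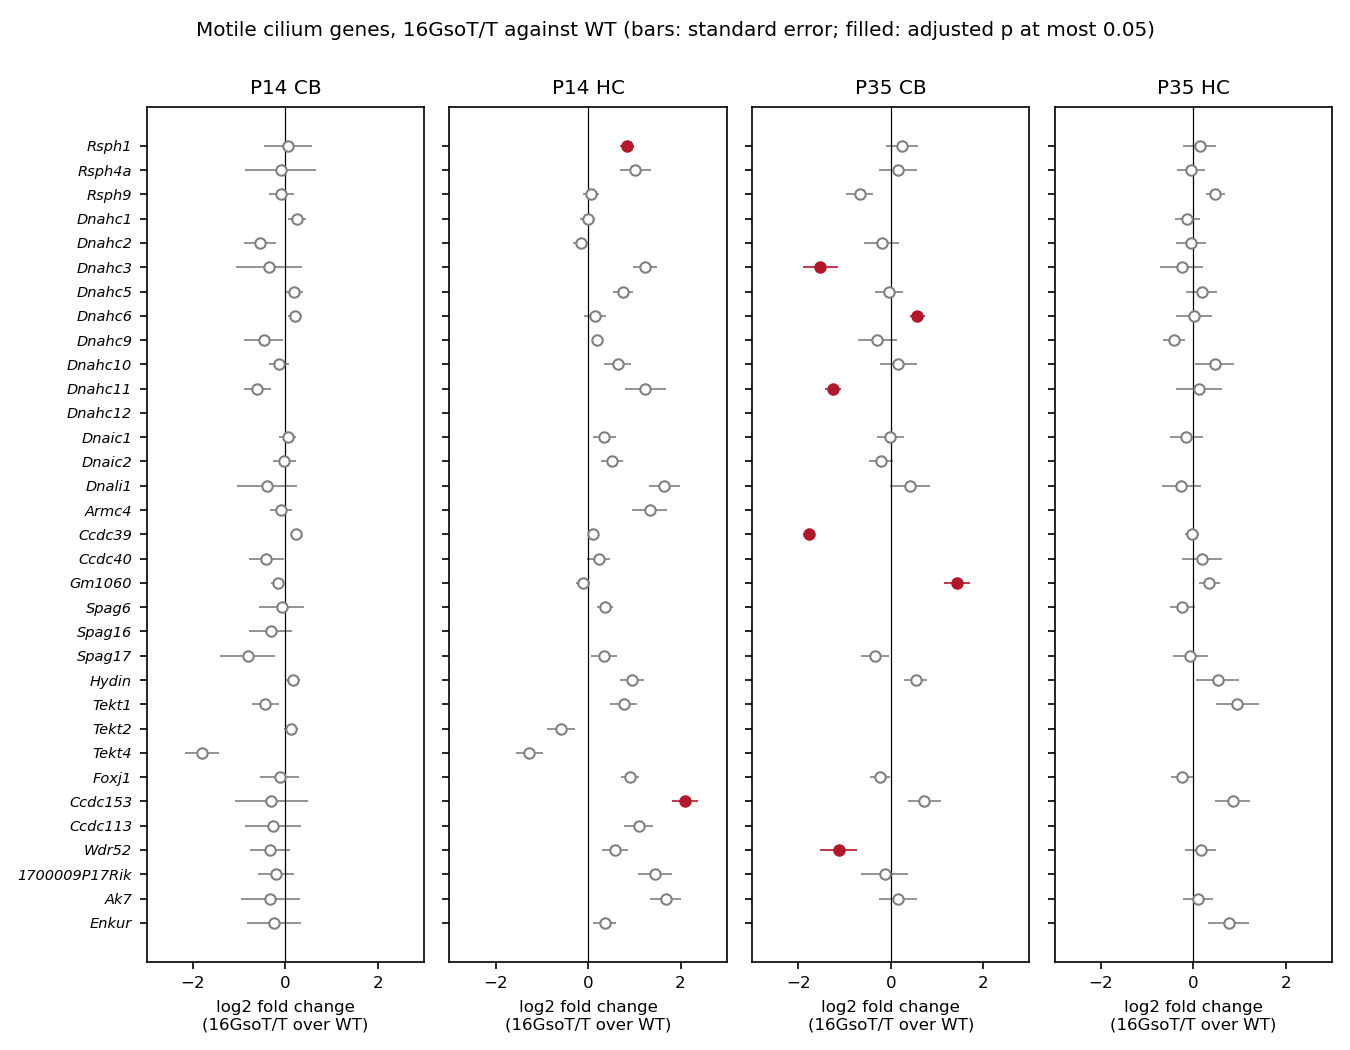
Log2 fold change of 16GsoT/T over WT for the 33 motile cilium genes in P14 CB, P14 HC, P35 CB and P35 HC, with bars for the standard error and filled points for an adjusted p of at most 0.05; genes without a point were too low to be tested. In P14 HC 26 of 31 points lie to the right of 0, and in P35 CB 4 filled points lie to the left and 2 to the right.

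Foxj1 (NCBIM37, chromosome 11, 116192018 to 116196713, minus strand) had 7.58, 12.4 and 6.91 CPM in the WT P14 HC libraries and 16.2, 17.6 and 17 CPM in 16GsoT/T. All 3 mutants were above all 3 controls, and WT replicate 2 was the highest control. The log2 fold change was 0.91 ± 0.197, and the adjusted p was 0.076 (edgeR), short of the threshold of 0.05. It passed with DESeq2 (adjusted p = 0.00312) and in edgeR without WT replicate 2 (log2 fold change 1.22, adjusted p = 0.0201).

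Ccdc153 (chromosome 9, 44048760 to 44055389, plus strand), a coiled-coil protein found in motile cilia, had 0.852, 1.51 and 1.98 CPM in WT and 6.07, 5.32 and 7.50 CPM in 16GsoT/T, from 9 to 22 and from 69 to 101 reads. The genotypes did not overlap. The log2 fold change was 2.10 ± 0.282, a 4.29-fold higher level (adjusted p = 0.021, edgeR). Without 16GsoT/T replicate 1 or 2, or WT replicate 1 or 2, the adjusted p was 0.0599 to 0.0738 and the log2 fold change 1.84 to 2.21.

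Rsph1 (chromosome 17, 31391964 to 31414301, minus strand) had 4.45, 5.52 and 4.94 CPM in WT and 7.97, 9.63 and 9.36 CPM in 16GsoT/T, again with no overlap. Its log2 fold change was 0.84 ± 0.15, a 1.80-fold higher level (adjusted p = 0.0482, edgeR). This call was lost whichever of the 6 libraries was left out, with adjusted p between 0.0779 and 0.173. Rsph4a, a radial spoke head protein like Rsph1, had 2.18, 5.96 and 2.51 CPM in WT and 7.57, 8.17 and 6.16 CPM in 16GsoT/T (log2 fold change 1.02 ± 0.338, adjusted p = 0.176, edgeR). Rsph9 had a log2 fold change of 0.07 ± 0.179, and its 2 groups overlapped.

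**Figure D3:**
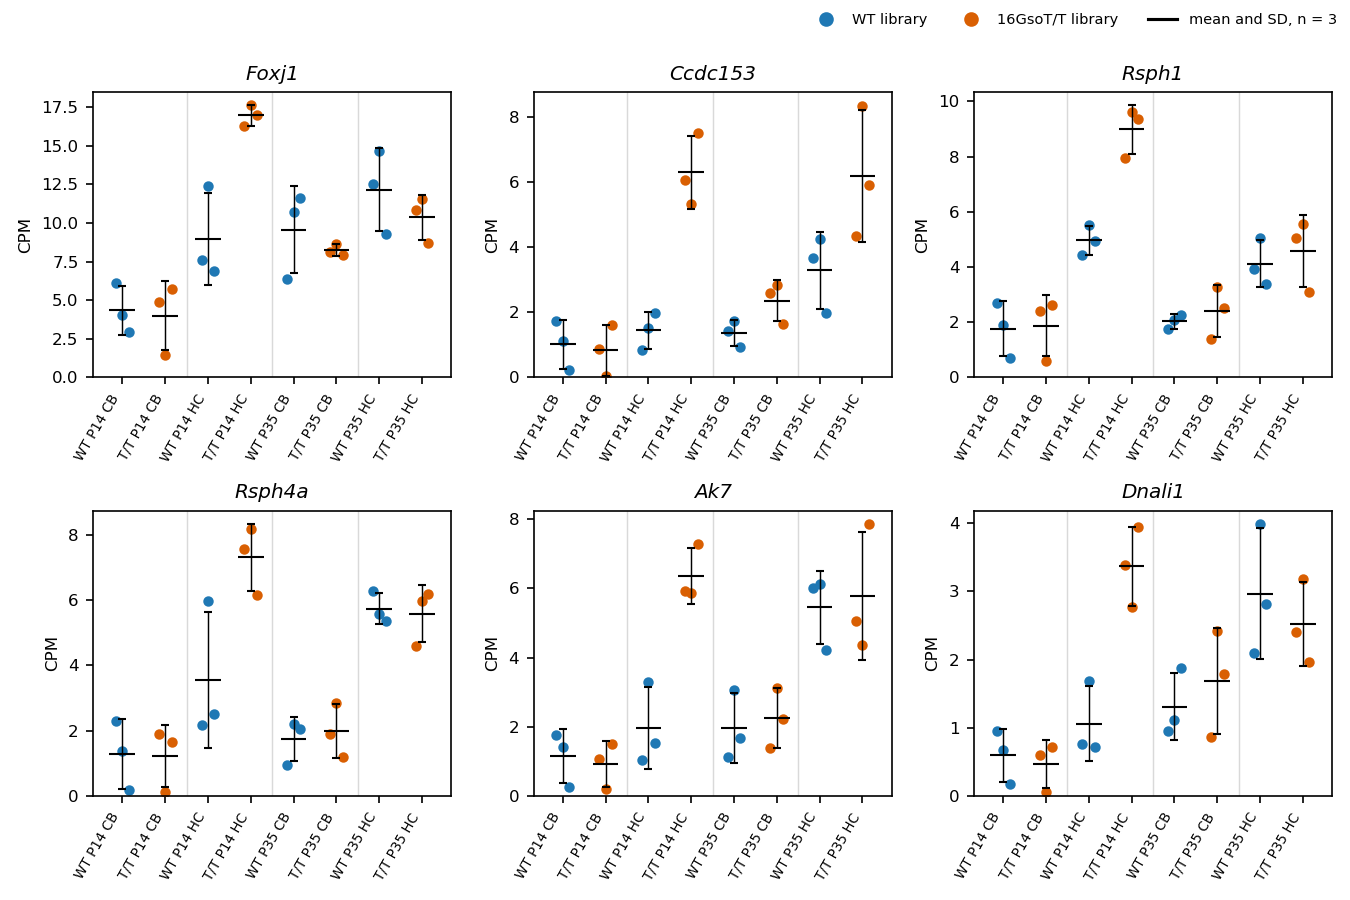
CPM of 6 motile cilium genes in each of the 24 libraries, by genotype, age and tissue, with the mean and SD of 3 libraries. In P14 HC every 16GsoT/T library lies above every WT library for each of the 6 genes, and in P35 HC the genotypes overlap for each of them except Ccdc153.

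The dynein genes had mostly positive log2 fold changes in P14 HC, and none of them passed the threshold. Among the 4 genes for dynein intermediate and light chains and docking, log2 fold changes were 0.35 to 1.65, with 3 of 4 not overlapping, and Dnali1, an inner arm light chain, had 0.758, 1.69 and 0.718 CPM in WT and 3.39, 2.77 and 3.94 CPM in 16GsoT/T (log2 fold change 1.65 ± 0.342, adjusted p = 0.0684, edgeR). Among 8 dynein heavy chains the log2 fold changes ran from -0.16 to 1.24, with 4 not overlapping in the higher direction. Ak7, an adenylate kinase of cilia, had 1.04, 3.29 and 1.53 CPM in WT and 5.92, 5.86 and 7.28 CPM in 16GsoT/T (log2 fold change 1.68 ± 0.34, adjusted p = 0.0684, edgeR). Both passed with DESeq2, which called 5 genes of the list in P14 HC.

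Tektins, which stiffen the doublets, differed among themselves. Tekt4 had 2.65, 4.54 and 2.60 CPM in WT P14 HC and 1.26, 1.46 and 1.34 CPM in 16GsoT/T (log2 fold change -1.27 ± 0.291, adjusted p = 0.0863, edgeR), so every mutant was below every control. In P14 CB it had 1.69, 1.22 and 1.82 CPM in WT and 0.429, 0.213 and 0.673 CPM in 16GsoT/T (log2 fold change -1.80 ± 0.362, adjusted p = 0.0837, edgeR). The mutants were again the 3 lowest, and in P14 CB the gene passed with DESeq2. Tekt2 had log2 fold changes of -0.59 ± 0.297 in P14 HC and 0.13 ± 0.146 in P14 CB, and Tekt1 of 0.77 ± 0.295 and -0.43 ± 0.299. Tekt4 and Tekt2 are named here because they were the 2 genes without overlap in the lower direction in P14 HC, and they were chosen after their values were seen.

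Further cilium genes and markers of other cells were examined in the same libraries. Of a list of 88 further motile cilium genes, 76 were in the tables and 64 were tested in P14 HC, where 0 passed (edgeR, smallest adjusted p 0.0654), 26 had an unadjusted p under 0.05, 50 had a log2 fold change above 0 and the median was 0.33. Of 39 primary cilium and intraflagellar transport genes, 25 were above 0 and the median was 0.03, with 0 called and 6 at an unadjusted p under 0.05 (edgeR). The 6 genes listed as ependymal but not part of the axoneme were Rarres2, Cd24a, Vim, Mia1, Calml4 and S100a6. They summed to 128, 123 and 111 CPM in WT and 133, 135 and 139 CPM in 16GsoT/T. All 6 had a log2 fold change above 0, with none called and 2 at an unadjusted p under 0.05 (edgeR). Their mean sum in WT at P14 was 233 CPM in CB and 121 CPM in HC. The motile cilium sum went the other way, with 96.0 and 173 CPM. Gene by gene the 6 were split between the WT tissues at P14, with 3 called higher and 2 called lower in CB (edgeR). The difference from the cilium genes is therefore one of the sums. The 12 choroid plexus genes, of the epithelium inside the ventricles that secretes cerebrospinal fluid, all had a log2 fold change above 0 (median 0.89), with none called and 1 at an unadjusted p under 0.05 (edgeR). They summed to 442, 933 and 115 CPM in WT and 1092, 1840 and 99.2 CPM in 16GsoT/T, so the groups overlapped, and neither Ttr nor Kl, their defining markers, was at 0 in any library. The 16GsoT/T library with the lowest choroid plexus sum, replicate 3, had 234 summed CPM over the 33 motile cilium genes, above every WT library. Within WT, replicate 2 had both the highest choroid plexus sum and the highest motile cilium sum, 202 CPM. The part of choroid plexus content in the levels of the list was not tested.

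Over the 33 genes the summed level in P14 HC was 147, 202 and 170 CPM in WT and 218, 236 and 234 CPM in 16GsoT/T. The 3 mutants were the 3 highest. The striatum markers of WT replicate 1 lay far above the rest, and without that library 0 genes of the list passed, Ccdc153 having an adjusted p of 0.0599 and Rsph1 of 0.126 (edgeR). WT and 16GsoT/T libraries of P14 HC carried different lane labels, so an effect of lane cannot be told apart from that of genotype here.

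**Figure D4:**
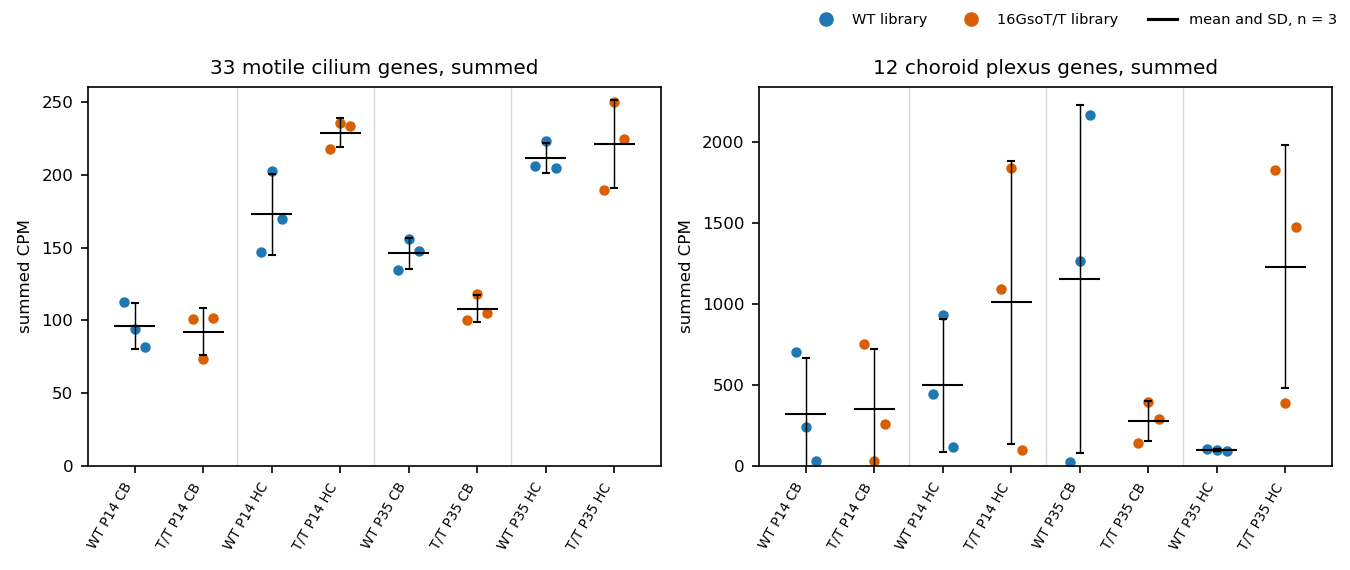
Summed CPM of the 33 motile cilium genes (left) and of 12 choroid plexus genes (right) in each of the 24 libraries, with the mean and SD of 3 libraries. The motile cilium sum separates the genotypes in P14 HC and in P35 CB, in opposite directions. In P35 CB its mean is 146 CPM in WT and 108 CPM in the mutants, of which Ccdc39 alone gives 45.0 and 13.4 CPM. Whether reads of Ttc14 entered the count of Ccdc39 cannot be told, so a fall of the list as a whole is not shown there. The choroid plexus sum spreads widely within most groups and separates the genotypes in P35 HC.

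In P14 CB none of the 32 genes tested passed (edgeR; 0.506% of all genes did), 2 had an unadjusted p under 0.05, and DESeq2 called 1, Tekt4. The log2 fold change was above 0 for 8 and below 0 for 24, with a median of -0.19. Foxj1 had 6.08, 4.03 and 2.95 CPM in WT and 4.86, 1.46 and 5.70 CPM in 16GsoT/T, with full overlap (log2 fold change -0.13 ± 0.414, adjusted p = 0.967, edgeR). 16GsoT/T replicate 2 was lowest for several genes, with 0.0304 CPM of Ccdc153, 0.122 CPM of Rsph4a and 0.213 CPM of Ak7, and its choroid plexus sum was 29.4 CPM, against 756 and 262 CPM in the other two. WT replicate 3 was low in the same way, with 0.217, 0.174 and 0.261 CPM of these genes and a choroid plexus sum of 29.6 CPM. The direction rested on single libraries: without 16GsoT/T replicate 2, 22 genes had a log2 fold change above 0, and without WT replicate 1, 21 did. Ccdc39 alone was higher in every mutant, with 15, 15.1 and 13.5 CPM in WT and 16.4, 17.1 and 17.6 CPM in 16GsoT/T (log2 fold change 0.23 ± 0.0885, adjusted p = 0.482, edgeR). One gene without overlap in each direction is 3.12% of the list, below the 6.48% of all genes in the higher and 7.17% in the lower direction.

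In P35 CB, 6 of the 22 genes tested passed, 4 lower and 2 higher in 16GsoT/T. This tissue and age held the most changes, with 35.3% of all 14004 genes called, so the share of the list (27.3%) was below that of all genes. The lower calls were 18.2% of the list against 18% of all genes, and the higher calls 9.09% against 17.4%. The median log2 fold change of the list was -0.08. The 11 genes not tested were Dnahc1, Dnahc12, Armc4, Ccdc40, Spag6, Spag16, Tekt1, Tekt2, Tekt4, Ccdc113 and Enkur.

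Ccdc39 (chromosome 3, 33711284 to 33743232, minus strand) fell most, from 46.8, 48.6 and 39.7 CPM in WT P35 CB to 13.7, 11.4 and 15.2 CPM in 16GsoT/T. Every mutant was far below every control. The log2 fold change was -1.77 ± 0.127, a 3.41-fold lower level (adjusted p = 1e-06, edgeR). Its exons share 1234 bases with those of Ttc14 on the opposite strand, and Ttc14, a tetratricopeptide repeat protein with no part in the cilium list, went from a mean of 287 CPM in WT (271 to 315) to 73.2 CPM in 16GsoT/T (65.2 to 78.6), a log2 fold change of -1.98 ± 0.0837 (adjusted p = 2.98e-08, edgeR). Reads of Ccdc39 were 15.7 ± 1.73% of those of Ttc14 in WT P35 CB and 18.4 ± 3.07% in 16GsoT/T (SD, n = 3), and the ranges of this ratio overlapped. In P14 CB the ratio was 4.66 ± 0.304% in WT and 5.72 ± 0.403% in 16GsoT/T, and in the 4 HC groups its mean ran from 22.6 to 29.5%. The kits named in the sources mark strand, but whether the counting used it is not given in the sources used here. It therefore cannot be told whether reads of Ttc14 entered the count of Ccdc39.

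**Figure D5:**
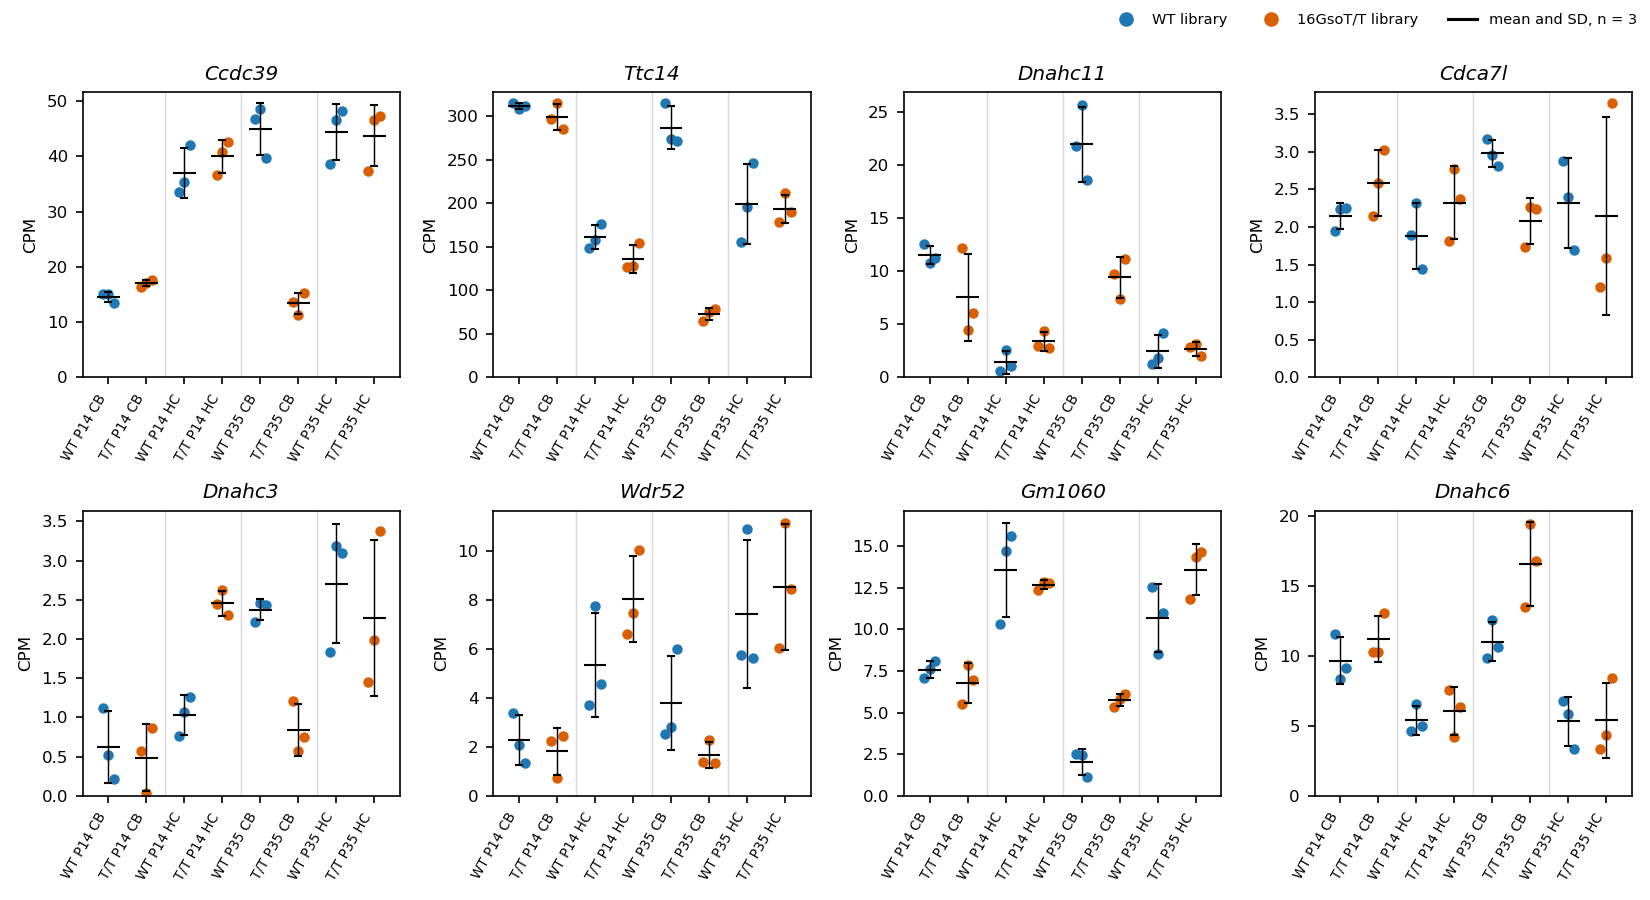
CPM in each of the 24 libraries, with the mean and SD of 3 libraries, for the 6 motile cilium genes called in P35 CB and for Ttc14 and Cdca7l, whose exons overlap those of Ccdc39 and Dnahc11 on the opposite strand. Ccdc39 and Ttc14 were both called lower in 16GsoT/T P35 CB and were called in no other tissue and age, and Gm1060 and Dnahc6 are higher there in every 16GsoT/T library.

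3 genes for other structures fell with it. Dnahc11 (chromosome 12, 119116455 to 119437516, minus strand) had 21.7, 25.6 and 18.5 CPM in WT and 9.68, 7.38 and 11.2 CPM in 16GsoT/T, a log2 fold change of -1.25 ± 0.172 (adjusted p = 0.000175, edgeR). The groups did not overlap. Its exons share 642 bases with Cdca7l on the opposite strand, which had 2.81 to 3.17 CPM in WT and 1.73 to 2.27 CPM in 16GsoT/T (log2 fold change -0.52 ± 0.279, adjusted p = 0.168, edgeR). Dnahc3 (chromosome 7, 127066231 to 127238691, minus strand), an inner arm dynein heavy chain, had 2.22, 2.46 and 2.43 CPM in WT and 1.21, 0.568 and 0.745 CPM in 16GsoT/T, from 13 to 20 and from 4 to 7 reads (log2 fold change -1.52 ± 0.373, adjusted p = 0.00738, edgeR). The mutants were the 3 lowest. Wdr52 (chromosome 16, 44394909 to 44482541, plus strand), the cilia and flagella associated protein Cfap44, had 2.54, 2.83 and 5.99 CPM in WT and 1.38, 2.27 and 1.34 CPM in 16GsoT/T (log2 fold change -1.13 ± 0.396, adjusted p = 0.042, edgeR). WT replicate 3 was above the other WT libraries, and without it the log2 fold change was -0.68 and the adjusted p 0.199. Wdr52 also lost its call without 16GsoT/T replicate 1 or 3 (adjusted p = 0.0932 and 0.132, edgeR).

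2 genes rose in the same libraries. Gm1060 (chromosome 5, 30607914 to 30668993, plus strand), or Drc1, a subunit of the nexin-dynein regulatory complex, had 2.54, 2.46 and 1.12 CPM in WT and 5.36, 5.82 and 6.11 CPM in 16GsoT/T, with no overlap (log2 fold change 1.44 ± 0.286, adjusted p = 0.00216, edgeR). Dnahc6 (chromosome 6, 72967600 to 73171645, minus strand) had 9.83, 12.5 and 10.7 CPM in WT and 13.5, 19.4 and 16.8 CPM in 16GsoT/T (log2 fold change 0.57 ± 0.165, adjusted p = 0.0177, edgeR). Each mutant was above each control for both. The call of Dnahc6 was lost without 16GsoT/T replicate 2 or WT replicate 1 or 3 (adjusted p between 0.0522 and 0.0728). The calls of Ccdc39, Dnahc11, Dnahc3 and Gm1060 held whichever of the 6 libraries was omitted.

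Foxj1 had 6.34, 10.7 and 11.6 CPM in WT P35 CB and 8.13, 8.66 and 7.89 CPM in 16GsoT/T, inside the range of the controls (log2 fold change -0.23 ± 0.217, adjusted p = 0.449, edgeR). Ccdc153 (log2 fold change 0.72 ± 0.358) and Rsph1 (0.25 ± 0.348), the genes that rose in P14 HC, did not pass. Summed over the 33 genes the level was 135, 156 and 148 CPM in WT and 100, 118 and 105 CPM in 16GsoT/T. Ccdc39 alone accounted for 45.0 CPM of the WT mean and 13.4 CPM of the 16GsoT/T mean. Whether reads of Ttc14 entered the count of Ccdc39 cannot be told, so a fall of the list as a whole was not shown. Of the 88 further motile cilium genes 36 were tested, of which 8 fell (22.2%, against 18% of all genes) and 1 rose (2.78%, against 17.4%), so that 25% were called against 35.3% of all genes. Those with the largest changes were Ccdc108 (log2 fold change -2.03 ± 0.42), Ccdc78 (-1.99 ± 0.382), Dnahc7b (-1.80 ± 0.18), a dynein heavy chain, and Ccdc135 (-1.76 ± 0.585). Of 39 primary cilium and transport genes 5 rose (12.8%) and 11 fell (28.2%), beside the same shares of all genes, and Kif17, a kinesin that moves cargo in cilia and dendrites, fell by 1.99 on the log2 scale.

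Markers of other cells were examined in P35 CB as well. Of 12 choroid plexus genes 11 had a log2 fold change below 0 and 3 fell (25%, against 18% of all genes), with sums of 24.4, 1266 and 2168 CPM in WT and 144, 393 and 291 CPM in 16GsoT/T. WT replicate 1 was below every mutant, so the groups overlapped. Of the 6 ependymal genes that are not part of the axoneme, 2 had a log2 fold change above 0 and 4 below, with 0 called and 1 at an unadjusted p under 0.05 (edgeR). Their sums were 232, 196 and 214 CPM in WT and 244, 177 and 195 CPM in 16GsoT/T, which overlapped. In WT at P35 their mean sum was higher in CB than in HC (214 and 88.9 CPM), unlike the motile cilium sum (146 and 211 CPM). Of 8 meningeal fibroblast genes 6 fell (75%), among them Dcn (log2 fold change -1.04 ± 0.109), with sums of 272 to 309 CPM in WT and 184 to 223 CPM in 16GsoT/T. Ttr and Kl were at 0 in no library. WT replicate 1, with 6.34 CPM of Ttr, had 46.8 CPM of Ccdc39, where the WT libraries ran from 39.7 to 48.6 CPM. It had 21.7 CPM of Dnahc11 (WT range 18.5 to 25.6) and 2.54 CPM of Wdr52 (WT range 2.54 to 5.99). The part of these other cells in the 6 calls was not tested.

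In P35 HC none of the 25 genes tested passed (edgeR; 0.135% of all genes did), 2 had an unadjusted p under 0.05, and DESeq2 called none. The log2 fold changes were above 0 for 14 and below 0 for 11, with a median of 0.10. Ccdc153 had 3.66, 4.25 and 1.97 CPM in WT and 4.34, 8.35 and 5.90 CPM in 16GsoT/T (log2 fold change 0.86 ± 0.38, adjusted p = 0.54, edgeR). Rsph9 had 13.1, 10.4 and 12.4 CPM in WT and 15.2, 14.7 and 19.7 CPM in 16GsoT/T (log2 fold change 0.48 ± 0.212, adjusted p = 0.541, edgeR). These were the 2 genes in which all mutants lay above all controls (8% of the list, against 6.12% of all genes). Foxj1 had 12.5, 14.6 and 9.29 CPM in WT and 10.8, 11.5 and 8.71 CPM in 16GsoT/T (log2 fold change -0.24 ± 0.245, adjusted p = 0.861, edgeR), and Rsph1 a log2 fold change of 0.13 ± 0.357. The 6 genes called in P35 CB had log2 fold changes between -0.25 (Dnahc3) and 0.34 (Gm1060) here.

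P35 HC was where choroid plexus genes differed most. Of the 11 tested, 8 rose in 16GsoT/T, with sums of 104, 95.5 and 90.6 CPM in WT and 1828, 391 and 1474 CPM in 16GsoT/T, and Ttr had a log2 fold change of 4.26 ± 0.447 (adjusted p = 0.001, edgeR). The motile cilium sum was 206, 223 and 205 CPM in WT and 190, 250 and 224 CPM in 16GsoT/T, and the groups overlapped. 16GsoT/T replicate 1, with the highest choroid plexus sum, had the lowest motile cilium sum of the 6. A link between these sums was not tested. The library numbers of WT replicates 2 and 3 start with W, that of WT replicate 1 with N and those of the mutants with B. A fit with a term for the W libraries leaves WT replicate 1 as the only control for genotype. It therefore cannot decide whether library series plays a part.

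Differences between genotype effects were tested as interaction terms. Between CB and HC at P14 none of 32 genes passed (edgeR), 9 had an unadjusted p under 0.05, DESeq2 called none, and 0% of all 16398 genes passed. At P35, 2 of 28 genes passed, against 9.61% of all genes: Ccdc39, whose log2 fold change was lower in CB than in HC by an interaction of -1.74 ± 0.198 (adjusted p = 3.52e-05, edgeR), and Rsph9 (-1.14 ± 0.351, adjusted p = 0.0482, edgeR). For Ttc14 the same interaction was -1.94 ± 0.187. Between P35 and P14 in CB, 2 of 32 genes passed, against 18.6% of all genes: Ccdc39 (-2.00 ± 0.158, adjusted p = 9.6e-07, edgeR) and Gm1060 (1.60 ± 0.306, adjusted p = 0.00229, edgeR). In WT CB, Ccdc39 had 13.5 to 15.1 CPM at P14 and 39.7 to 48.6 CPM at P35, and in 16GsoT/T CB 16.4 to 17.6 CPM and 11.4 to 15.2 CPM. Gm1060 had 7.06 to 8.08 CPM at P14 and 1.12 to 2.54 CPM at P35 in WT CB, and 5.49 to 7.85 CPM and 5.36 to 6.11 CPM in 16GsoT/T CB. Between the ages in HC none of 31 genes passed (edgeR; 0.00666% of all genes did), 6 had an unadjusted p under 0.05 and DESeq2 called none. The smallest p of these was that of Foxj1, with an interaction of -1.15 ± 0.319 (adjusted p = 0.204, edgeR), so that the higher level of the list in P14 HC was not shown to differ from P35 HC.

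The genes whose levels were most like those of Foxj1 were ranked by Pearson's correlation of log2(CPM + 1) over the 24 libraries, after the mean of each tissue and age was subtracted, among 14980 genes. The first 5 were Rsph4a (0.863), Rsph1 (0.821), Dnali1 (0.801), Ak7 (0.792) and 4932425I24Rik (0.765), and the first 4 belong to the 33. At the other end of the list Gm1060 (-0.29), Tekt2 (-0.17) and Tekt4 (-0.01) had values at or below 0, and Ccdc39 had 0.0846, rank 5097. Libraries of one tissue and age also differed in genotype, depth and choroid plexus content, which were not removed. The part of these in the correlations was not tested, and the values are a description of these 24 libraries.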

How the data were processed

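Total RNA of CB and HC was sequenced from poly(A) libraries, and the authors deposited raw HTSeq counts per gene, with no normalization, in one table for each age. Per the labels' processing notes, CASAVA 1.8.2, TopHat2 2.0.8, HTSeq 0.6.1 and edgeR 3.2.4 in R 3.0.0 were used on NCBIM37; the strand option and the gene annotation are not given in the sources used here. The labels name a TruSeq stranded kit and the study's methods a KAPA stranded kit. Summary lines of HTSeq (reads on no gene, not unique) were kept out of library sizes; the share of reads on no gene was 20.6 to 51.9%.

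Groups came from the labels, with 3 libraries each and replicates numbered in accession order. The 33 genes and all gene lists were chosen with earlier results of these data known. Counts were tested with edgeR 4.0.16 in R 4.3.3 (TMM, filterByExpr at min.count 10 and min.total.count 15, glmQLFit and glmQLFTest, Benjamini-Hochberg adjustment over all genes tested, threshold 0.05). The standard error is the absolute log2 fold change divided by the square root of F. Each genotype comparison used its own 6 libraries, and interactions used 12. Levels are CPM with TMM factors over all 24 libraries, and per kilobase values use GENCODE exon lengths on NCBIM37. With 3 against 3, p-values set the difference between groups against the spread between these libraries. Counting error is large for genes under 10 reads. Genes named are Foxj1, the called genes of the list, and at most 4 called genes of each other list; Rsph4a, Rsph9, Ak7, Dnali1 and the tektins were named after their values were seen. Alternatives were DESeq2 1.42.0, its size factors, other filters, each library left out, and 1 fit per age. The test was tried on simulated counts, where 94.4% of 197 genes changed by 1.5 on the log2 scale were called in P14 HC, over 15276 genes. The changed genes were drawn from genes of all levels. This share therefore does not give the power for genes as low as those of the list, or for smaller changes.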

Additional observations from a re-analysis of the deposited data

Results flagged for a closer look

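4 interactions passed the test of a difference between genotype effects. The genotype effect on Ccdc39 differed between CB and HC at P35 by -1.74 on the log2 scale and between P35 and P14 in CB by -2.00, in both cases lower in P35 CB, where Ttc14 on the opposite strand moved with it. Gm1060 differed between P35 and P14 in CB by 1.60, with WT at 7.06 to 8.08 CPM at P14 and 1.12 to 2.54 CPM at P35, and 16GsoT/T at 5.49 to 7.85 and 5.36 to 6.11 CPM. The P14 CB and P35 CB libraries differ in the share of reads on no gene (20.6 to 22.5% against 48.9 to 51.6%) in both genotypes, and its part in the interactions with age was not tested. Rsph9 differed between CB and HC at P35 by -1.14, with a log2 fold change of -0.67 in CB and 0.48 in HC, neither of which passed on its own, and it lost its call in 9 of the 12 fits without a library.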

How the results depend on the processing

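Few reads fell on these genes, and calls moved where counts were low. In P14 HC the 2 genes called became 5 with DESeq2 (Ccdc153, Rsph1, Ak7, Dnali1 and Foxj1), 1 with DESeq2 size factors, 1 with at least 10 counts in every library, 0 in 1 fit of all 12 libraries of the age, and 0 to 3 when a library was left out (Ak7, Foxj1 and Rsph4a without WT replicate 2). In P14 CB the 0 genes called became 1 (Tekt4) with DESeq2, with no filter and in 1 fit of the 12 libraries, and 0 to 1 when a library was left out (Dnahc11 without 16GsoT/T replicate 1, Tekt4 without 16GsoT/T replicate 3). The log2 fold change of Foxj1 in P14 CB ran from -0.47 to 0.26 when a library was left out, changing sign to 0.20 without WT replicate 1 and 0.26 without 16GsoT/T replicate 2. In P35 CB the 6 became 3 with at least 10 counts in every library, where Dnahc3, Gm1060 and Wdr52 were not tested, and 5 to 6 when a library was left out. For CB against HC in WT at P35 the 15 became 7 with that filter, since 8 of them had fewer counts in some library. For the interaction with tissue at P35 the 2 became 1 (Ccdc39) with DESeq2, with DESeq2 size factors and with no filter, and 1 to 2 when a library was left out. For the interaction with age in CB the 2 became 1 (Ccdc39) with at least 10 counts in every library. An edgeR fit with adjusted deviances, chosen after seeing the data, called the same 2 genes in P14 HC (Ccdc153 and Rsph1). No paired analysis was possible because the labels give the groups no shared replicate numbers.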
